A study of Mus musculus with 2 samples.

Results

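The genes described here are the mouse prolactin family, the pregnancy-specific glycoprotein (Psg) genes, the related Ceacam genes and the cathepsins, with the question of when their loci replicate in embryonic stem cells. They were taken by symbol from the RefSeq protein-coding genes of mm10, which gave 77 of 21774 genes. Of these, 26 belong to the prolactin family, 13 to the Psg family and 15 to the Ceacam family, and 23 are cathepsins. The cathepsins were divided by known expression into 9 placental, 9 widely expressed and 5 tissue-restricted genes. The data were 1 early and 1 late S phase library from 46C embryonic stem cells of strain 129P2/Ola, a single cultured line kept on gelatin with serum and leukemia inhibitory factor. Both libraries came from cells given 50 µM bromodeoxyuridine for 2 h and sorted by DNA content. The labels give no difference between them other than the sorted fraction. The deposited value is 1 timing score per genomic position for the pair of libraries, smoothed over 300 kb. No source used here gives its unit or log base, and scores above 0 are read as early from the order of the names in the deposited table. Each gene took the score at the position nearest to its midpoint, at most 100 kb away, and 76 of the 77 had one. With 1 library per fraction there is no replicate error and no test, and the depth is unknown, so every comparison below is a description of this pair of libraries. No RNA was measured, so the cell type in the label could not be set against marker expression.

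The placenta of rodents makes a large set of hormones and proteases from gene families that expanded by tandem duplication. The prolactin family comprises the pituitary hormone gene Prl and many relatives expressed in trophoblast and decidua, and they act on the mother's ovary, vessels and immune cells. Psg proteins are secreted by trophoblast, while Ceacam proteins, of the same immunoglobulin-like superfamily, include adhesion receptors of epithelia and blood cells as well as trophoblast proteins. Cathepsins are mostly lysosomal proteases, and a group of relatives of cathepsin L is known from the rodent placenta. Embryonic stem cells come from the embryo proper and rarely form trophoblast. Replication timing is the order in which parts of the genome are copied in S phase. Early copying is generally associated with gene-rich, open chromatin.

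Median scores differed between the families, but their ranges overlapped in part. All 26 prolactin family genes lay below 0, with a median of -1.26, and so did all 8 placental cathepsins with a score, with a median of -1.09. Among protein-coding genes as a whole 26.5% lay below 0, and the median was 1.02. The Psg family was divided, with 8 of 13 genes below 0 and a median of -0.33. In the Ceacam family 5 of 15 genes lay below 0, the median was 1.20, and 9 lay above 1, a level passed by 50.5% of protein-coding genes. Widely expressed cathepsins had a median of 0.97, with 7 of 9 above 0, against 73.5% of protein-coding genes. Tissue-restricted cathepsins had a median of 1.47, with 4 of 5 above 0. Scores below -1 were found for 22 prolactin family genes and 6 placental cathepsins, and for no Psg gene; the share among protein-coding genes was 9.59%. Members of 1 cluster share smoothed positions, so these counts do not stand for independent loci.

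The placental cathepsins lay 2.06 below the widely expressed cathepsins in median score. The prolactin family, Psg family and placental cathepsins together, called the placental clusters here, had a median of -1.10 over 47 genes with a score. That was 2.08 below the same 9 genes. The Ceacam family was not part of this set, although it has trophoblast members, and 10 of its 15 genes lay above 0. The Psg family alone differed by less, 1.31. The ranges of the prolactin family (-1.62 to -0.78) and of the widely expressed cathepsins (-1.59 to 1.69) overlapped, through Ctso and Ctsc. Without Ctsl, the only widely expressed cathepsin on the chromosome of the placental ones, the difference of the cathepsin groups was -1.85.

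**Figure D1:**
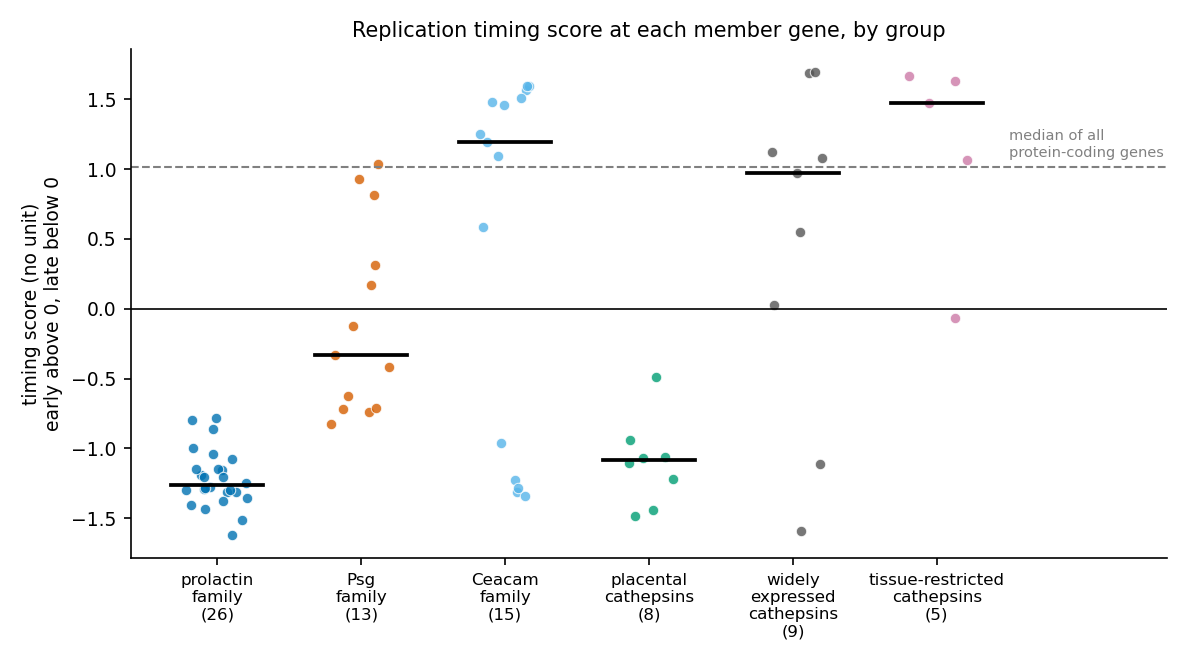
Timing score (no unit) of each member gene, by group, with the number of genes in brackets; black bars are group medians, the solid line is 0 and the dashed line is the median of all protein-coding genes, 1.02. The 26 prolactin family genes and 8 placental cathepsins lie below 0 without exception, while Psg, Ceacam and the other cathepsins have genes on both sides.

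Most of the prolactin family sits in 1 cluster on chromosome 13 (27057570 to 28151595), where 23 genes fill 1.09 Mb. Their scores ran from -1.62 to -0.999, and the 150 positions within the cluster were all below 0. The cluster lay inside a late run of 3.54 Mb (25074181 to 28610513), which held 26 protein-coding genes, 23 of them prolactin family members. Read from the autosomal median of the scores, -0.30, as zero, the run was 2.36 Mb long. The nearest gene on the low-coordinate side, Hdgfl1, was 287 kb away with a score of -1.42. On the high-coordinate side the next gene was Sox4, a transcription factor gene 797 kb away with a score of 0.89. The 1 Mb before the cluster was entirely late with a median of -1.31, whereas the 1 Mb after it had a median of 0.17, with 42.4% of its positions below 0. The cluster thus lay inside a late domain on one side and within 1 Mb of an early gene on the other.

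Within the cluster the score rose and fell without reaching 0. Prl, the pituitary hormone gene at the low-coordinate end (27057570 to 27065204), had -1.41. Prl3d1, which encodes placental lactogen I of trophoblast giant cells, had -1.28, and its near copies Prl3d2 and Prl3d3 had -1.15 and -1.04. The least late gene of the cluster was Prl3c1 at -0.999 (27196660 to 27203749), 139 kb from Prl. Beyond it the score fell again: Prl3b1, the placental lactogen II gene, had -1.07, Prl6a1 -1.25 and the decidual hormone gene Prl8a2 -1.29. A second low point was Prl8a8 at -1.51, which was 310 kb from Prl3c1. The 5 Prl7 genes followed within a narrow range of -1.31 to -1.21, among them Prl7d1, known as proliferin-related protein, at -1.30. Prl2c1 had -1.15 and Prl4a1 -1.20, and the cluster ended in its latest gene, Prl5a1, at -1.62 (28142484 to 28151595). Prl5a1 was also the lowest of all 76 scored members. By subfamily the medians were -1.11 for Prl3, -1.30 for Prl7 and -1.37 for Prl8. Neighbours within 300 kb share smoothed values, so these medians are not separate measurements.

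**Figure D2:**
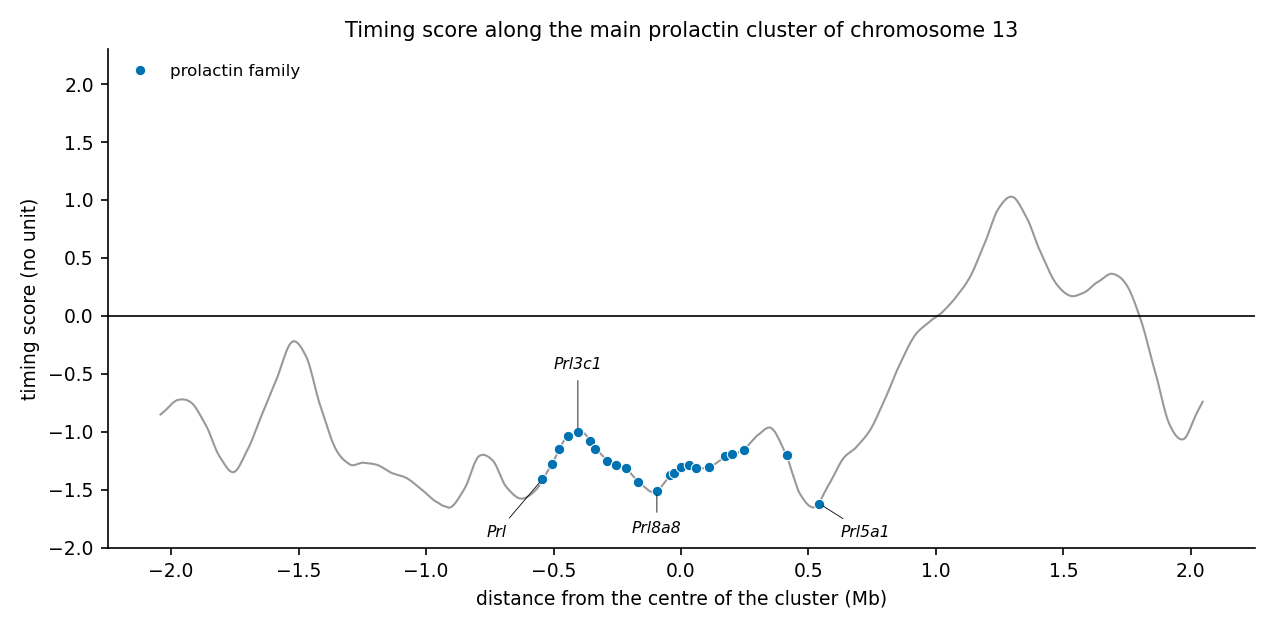
Timing score (no unit) along the main prolactin cluster and 1.5 Mb on either side, against distance from the centre of the cluster in Mb; the grey line joins the deposited positions and each dot is 1 gene. All 23 genes lie between -1.62 and -0.999, with Prl3c1 the least late and Prl5a1 the latest.

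A second prolactin site lay nearer to the centromere of chromosome 13 (12790816 to 13191930). It holds Prl2c3, Prl2c2, which encodes the trophoblast growth factor proliferin, and Prl2c5, and their scores were -0.86, -0.80 and -0.78. These 3 genes and Prl3c1 (-0.999) were the only prolactin family genes not below -1. Their late run was 1.02 Mb long, or 0.476 Mb when read from the autosomal median. The genes next to the site differed in sign: Ero1b had 0.27 on the low-coordinate side and Gm7040 -0.24 on the other. The site was thinly covered, with 4.49 positions per 100 kb, against 13.7 in the main cluster and 17.3 at the median spacing of the genome. Prl2c2 lay in a gap of 246 kb without positions, so that its score belongs to a position 59.0 kb away. The part of this thin coverage in the scores was not tested.

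The promoter windows of the prolactin family were poor in CpG, the dinucleotide at which mouse DNA is methylated. RefSeq promoter sequences of GRCm38.p6, the assembly of mm10, covered 250 bases before and 50 after a transcription start and were held for 22 of the 26 genes. They had a median of 2 CpG (0 to 5) and of 40.5% G and C, against 13 CpG and 56.3% for 17492 protein-coding genes with a window. Protein-coding genes scored below 0 had a median of 3 CpG and 46.7% G and C. The stretch before the start of Prl3d1, the placental lactogen I gene, is shown as an example (chr13:27094069-27094188, plus strand, 120 bases up to the start), with CpG and the motif TGANTCA in capitals:
Prl3d1: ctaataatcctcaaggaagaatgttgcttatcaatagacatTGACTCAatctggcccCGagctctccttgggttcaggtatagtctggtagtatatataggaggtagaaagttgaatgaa
The letters TGANTCA, with N any base, are the same pattern on both strands and include known sites of AP-1 factors, but not every match is such a site. They were in 9 of 22 prolactin windows, against 7.03% of all windows and 10.8% of those of genes scored below 0. The letters AGATAA on either strand, which GATA factors bind, were also in 9 of 22, against 9.94% of all windows and 16.4% of those of genes scored below 0. They were in 7 of 13 Ceacam windows. Among the carriers of TGANTCA were Prl3d1, Prl3d2 and Prl3d3, whose windows are 85.4 to 97.0% identical, so they do not count as separate occurrences. The same holds for Prl2c3, Prl2c5 and Prl7d1, which carry AGATAA and are 93.4 to 95.3% identical. G and C content was lower in the prolactin windows than in both backgrounds, and its part in the motif counts was not tested. A match is a description of letters and not a shown binding site.

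The Psg genes and 8 of the Ceacam genes are interleaved in a locus of 2.15 Mb on chromosome 7 (16671331 to 18821591), and the score crossed 0 there 2 times. The low-coordinate end was early. Ceacam15 had 1.51 and Ceacam9, a trophoblast member of the family, 1.48, among widely expressed genes such as Ap2s1 (1.52), Slc1a5 (1.64) and Calm3 (1.44). From there the score fell through Psg16 (0.93), Ceacam3 (0.58) and Psg29 (0.31; 17203477 to 17215756). A late run of 1.39 Mb followed (17304060 to 18689551) with a median of -1.10, and it held 13 members, 5 Ceacam and 8 Psg genes. The 5 Ceacam genes came first, with Ceacam5 at -1.29, Ceacam14 at -0.96, Ceacam11 at -1.23, Ceacam13 at -1.34 and Ceacam12 at -1.31. Igfl3 (-1.40) and Mill1 (-1.37), between Ceacam12 and Psg18, were lower than all 5.

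The main row of Psg genes lay on the slope out of that late run. It spans 476 kb (18345744 to 18821591) with 11 genes, and the scores began at -0.82 for Psg18. Psg28 (-0.71), Psg26 (-0.74), Psg25 (-0.72) and Psg27 (-0.63) formed a shelf of nearly equal values. The score then rose from gene to gene through Psg23 (-0.42), Psg21 (-0.33) and Psg20 (-0.13) to Psg22 at 0.17, which encodes a Psg of early giant cells. Psg19 had 0.81, and Psg17, whose product binds the membrane protein CD9, had 1.04 at the end of the row (18813937 to 18821591). The change of sign thus fell between Psg20 and Psg22, whose midpoints are 42.6 kb apart. Read from the autosomal median as zero it fell between Psg21 and Psg20, which was then 0.18. By that zero 6 of 13 Psg genes were early, against 78.5% of protein-coding genes. Over the whole row, from Psg18 to Psg17, the score rose by 1.86 over 467 kb. Most of that rise, 1.66, fell in the 256 kb from Psg27 to Psg17, a stretch picked for its steepness after the scores were seen. Outside the row Mill2 (1.42) and Pglyrp1 (1.67) were early.

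**Figure D3:**
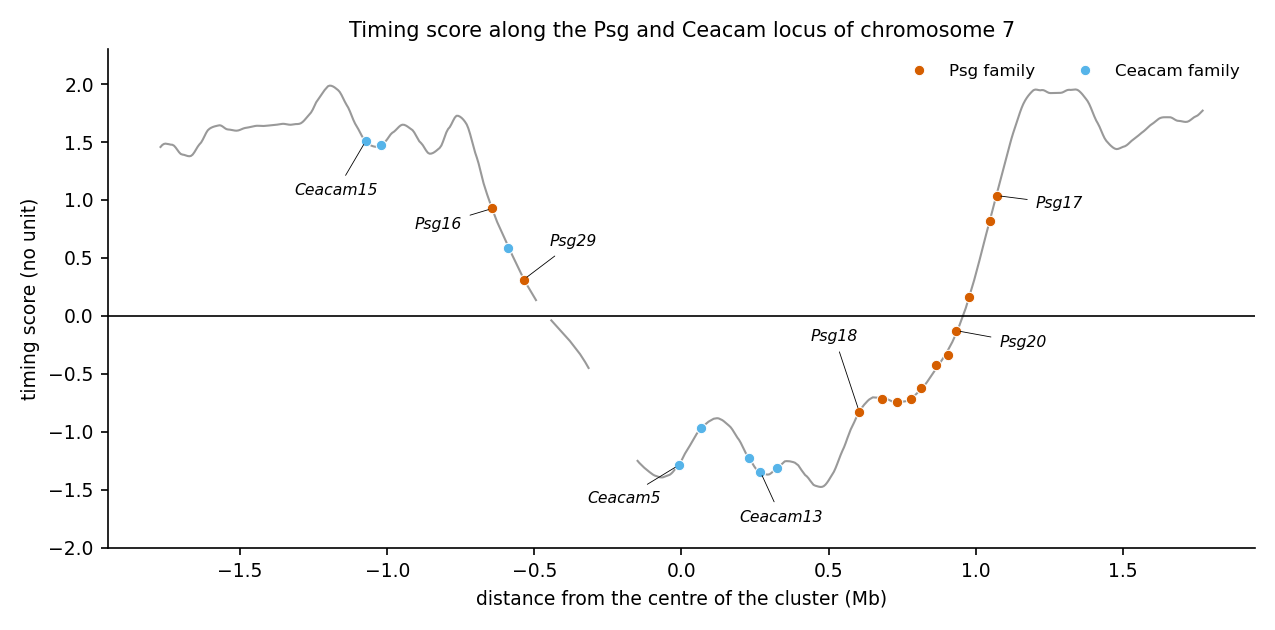
Timing score (no unit) along the Psg and Ceacam locus and 0.7 Mb on either side, against distance from its centre in Mb; the grey line joins positions and is broken at gaps of 50 kb or more. The locus is early at both ends, the 5 Ceacam genes from Ceacam5 to Ceacam12 lie between -1.34 and -0.96, and the Psg row climbs from -0.82 to 1.04.

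The promoter table held 1 Psg gene beyond that change of sign, Psg17, and its window resembled those of most late Psg genes. The 10 Psg windows in the table had a median pairwise identity of 76.5%, against 51.2% for prolactin windows, by global alignment. Psg27, at -0.63, and Psg17, at 1.04, were 84.4% identical over the window, and the stretches before their starts are set side by side to show this (chr7:18567306-18567425 and chr7:18821592-18821711, both minus strand, 120 bases up to the start, CpG and TGANTCA in capitals):
Psg27: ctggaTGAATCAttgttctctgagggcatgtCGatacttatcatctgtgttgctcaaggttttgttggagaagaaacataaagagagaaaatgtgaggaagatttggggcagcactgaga
Psg17: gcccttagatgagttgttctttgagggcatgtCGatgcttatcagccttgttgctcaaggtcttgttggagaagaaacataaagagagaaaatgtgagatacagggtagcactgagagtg
Psg17 was 76.6 to 86.2% identical to the late genes of the row other than Psg20. The entry of Psg20, which starts inside the annotated gene, was 46.6% identical to Psg17 and at most 50.4% to any Psg window. The 10 windows had 0 to 3 CpG, and TGANTCA was in 3 of them, those of Psg18, Psg27 and Psg28, which all scored below 0. Psg18 and Psg28 are 96.7% identical and so do not count as separate occurrences. Over all members with both a window and a score, TGANTCA was in 13 of 45 scored below 0, against 10.8% of all such protein-coding genes, and in 0 of 18 scored above 0, against 5.70%. Of the 13, 9 were prolactin windows, near copies included. The G and C content of these groups also differed, with medians of 44.0% and 53.3%, and its part in the motif counts was not tested.

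Coverage in the locus was thinner than along most genes. Around Psg genes there was a median of 10 positions within 50 kb on either side of the midpoint, against 17 for all protein-coding genes. Prolactin and Ceacam genes had 13, placental cathepsins 12 and widely expressed cathepsins 16. A gap of 166 kb (17430700 to 17597193) separated scores of -0.45 and -1.25 on the first slope, and the first change of sign, between Psg29 and Ceacam5, fell in another gap of 52.1 kb. Near-identical copies can lose uniquely aligned reads, and no source used here says how such reads were treated, so the part of thin coverage in these values was not tested.

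The remaining Ceacam genes were all early. Ceacam16, which encodes a protein of the inner ear, Ceacam19 and Ceacam20 had 1.59, 1.59 and 1.46 at a second site on chromosome 7 (19852097 to 19991113). Another site (24777167 to 25540004) held Ceacam10 at 1.56, the epithelial and immune adhesion receptor gene Ceacam1 at 1.20 (25461702 to 25477647) and its close relative Ceacam2 at 1.09. Between Ceacam10 and Ceacam1 lay early genes of general functions, among them the ribosomal protein gene Rps19 (1.71) and the kinase gene Gsk3a (1.56). Ceacam18 stood alone at 1.25. All 13 Ceacam windows, of early and late genes, were low in CpG, with 0 to 5. A count of 0 was found for Ceacam15, scored 1.51, and for Ceacam5, scored -1.29. Whether the CpG count goes with the score in this family was not tested.

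The 9 placental cathepsins form a cluster of 0.77 Mb on chromosome 13 (60798250 to 61570170). Ctsll3, at the low-coordinate end, had -0.49 and was the least late. Ctsj had -1.07, Ctsq, known from trophoblast giant cells, -1.10 and Ctsr -1.06. The score fell further through Cts6 (-1.22) and Cts8 (-1.44) to Cts7 at -1.49, the lowest of the cathepsin cluster (61352461 to 61358196). Cts8 and Cts7 are also known from giant cells. Ctsm and Cts3, at the high-coordinate end, lay in a gap of 247 kb without positions. Ctsm therefore took -0.94 from a position 80.6 kb away, and Cts3, 109 kb from the nearest position, has no score. Across that gap the score went from -0.94 to 0.52, so the late run ended somewhere inside it and the timing of both genes was not measured directly.

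Genes of related function within the cathepsin cluster shared its timing. Ctla2a and Ctla2b, which encode inhibitors resembling the cathepsin propeptide, had -0.92 and -0.81. Tpbpa, the standard marker of spongiotrophoblast, and its relative Tpbpb had -0.93 and -0.84. All 4 lie between Ctsll3 and Ctsj, so they share smoothed positions with the cathepsins and are no separate measurement. The late run was short, 0.78 Mb (60676173 to 61458212), and held 14 protein-coding genes, 7 of them members, since Ctsm lies beyond its last position. Its low-coordinate border lay within the kinase gene Dapk1, scored -0.053. On the other side, across the gap, the predicted genes Gm21933 and Gm20599 took 0.52 from an early run of 2.89 Mb.

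**Figure D4:**
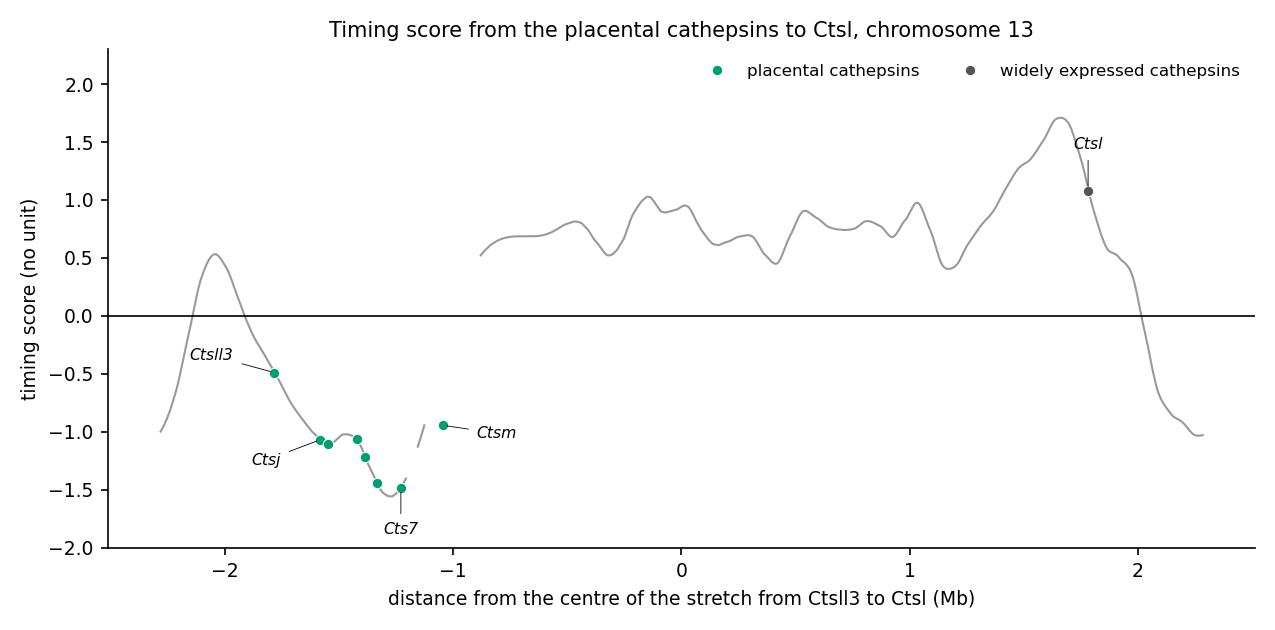
Timing score (no unit) from the placental cathepsins to Ctsl and 0.5 Mb on either side, against distance from the centre of that stretch in Mb; the grey line joins positions and is broken at gaps of 50 kb or more, and Ctsm is drawn at its midpoint inside a gap. The placental genes lie between -1.49 and -0.49, and Ctsl at 1.08.

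Ctsl encodes cathepsin L, the widely expressed lysosomal protease to which the placental cathepsins are related, and it lies on the same chromosome outside their cluster (64361890 to 64370772). Its score was 1.08, in that early run, 2.66 Mb from the low-coordinate end of the run and 232 kb from the high-coordinate end. The nearer end thus lay within the 300 kb of smoothing. The other widely expressed cathepsins were on other chromosomes. Ctsa, a carboxypeptidase gene, had 1.69, Ctsf 1.69, Ctsh 1.12, Ctsb 0.97 (chromosome 14, 63122462 to 63145923) and Ctsz 0.55. Ctsd, which encodes the aspartic protease cathepsin D, stood at the border with 0.026 (chromosome 7, 142375910 to 142387827). It lay 5.05 kb from the end of an early run of 0.12 Mb. Read from the autosomal median it was 0.33, in an early run of 2.12 Mb.

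Ctsc and Ctso were the exceptions among widely expressed cathepsins. Ctsc encodes the dipeptidyl peptidase that activates granule proteases of immune cells and had -1.11 (chromosome 7, 88278024 to 88315861), in a late run of 5.03 Mb, or 2.04 Mb when read from the autosomal median. Ctso had -1.59 (chromosome 3, 81932601 to 81956725), lower than any placental cathepsin, in a late run of 3.74 Mb with 20 protein-coding genes. Tissue-restricted cathepsins were early except for Ctsg, the neutrophil protease gene, at -0.064. That gene lay 10.3 kb from the end of a late run of 0.15 Mb and was early, at 0.24, when read from the autosomal median. Ctsk of osteoclasts (1.63) and Ctss of antigen-presenting cells (1.67) are neighbours on chromosome 3, Ctsw of cytotoxic lymphocytes had 1.47 and Ctse 1.06.

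The promoter windows of placental and widely expressed cathepsins differed in CpG content without overlap. All 9 placental windows had 0 to 3 CpG, with a median of 1, while the 7 widely expressed genes in the table had 5 to 33, with a median of 12. The entries of Ctsl (10 CpG) and Ctsc (12) start 252 and 61 bases inside the annotated gene and may not be the main start; without them the range was still 5 to 33. At most 5 CpG were found in 32.7% of all windows and in 59.3% of those of genes scored below 0. The 3 tissue-restricted windows had 2 CpG (Ctsk, scored 1.63), 5 (Ctss, 1.67) and 8 (Ctsg, -0.064), so low counts were not limited to placental cathepsins. Ctsj and Cts7 are shown for the placental group, Ctsd for the highest CpG count and Ctso for the lowest among widely expressed cathepsins (chr13:61005926-61006045, chr13:61358197-61358316 and chr7:142387828-142387947, minus strand, and chr3:81932481-81932600, plus strand, 120 bases up to the start, CpG in capitals):
Ctsj: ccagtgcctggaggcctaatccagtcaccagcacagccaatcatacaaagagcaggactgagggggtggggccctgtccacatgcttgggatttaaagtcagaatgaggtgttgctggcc
Cts7: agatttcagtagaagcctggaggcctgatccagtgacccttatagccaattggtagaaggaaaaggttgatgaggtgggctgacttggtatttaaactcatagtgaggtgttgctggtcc
Ctsd: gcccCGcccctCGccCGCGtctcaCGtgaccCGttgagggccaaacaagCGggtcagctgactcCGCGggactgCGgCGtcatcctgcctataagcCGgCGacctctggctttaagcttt
Ctso: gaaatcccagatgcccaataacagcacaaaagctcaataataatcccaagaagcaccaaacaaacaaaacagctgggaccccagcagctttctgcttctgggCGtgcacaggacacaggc
Among the widely expressed genes Ctso had the fewest CpG and the lowest score, and Ctsf (19 CpG) and Ctsa (15) had the highest scores. Ctsd had the most CpG, 33, and scored 0.026, while Ctsc and Ctsz had 12 each and scored -1.11 and 0.55. The letters TATAAA on either strand were in 4 of 9 placental windows, those of Cts3, Ctsll3, Ctsm and Ctsq, and in 0 of 7 widely expressed ones, against 13.3% of all windows and 24.5% of those of genes scored below 0. Cts3 and Ctsm are 89.8% identical and so are not separate occurrences, and 2 of 3 tissue-restricted windows held the letters too. Median G and C content was 46.0% in placental windows and 60.3% in widely expressed ones, and its part in these counts was not tested. Placental windows were a median of 54.6% identical to each other over 36 pairs and 45.3% to widely expressed ones over 63 pairs.

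**Figure D5:**
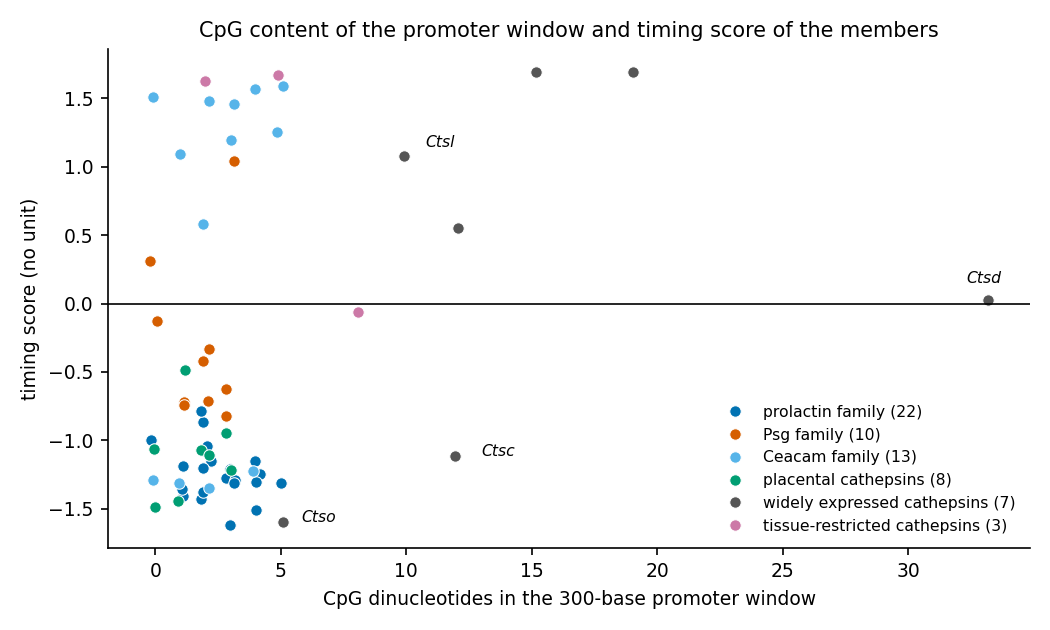
Timing score (no unit) against the number of CpG in the promoter window, for the 63 members with both, coloured by group; points are spread sideways slightly so that they do not hide each other. Prolactin family, Psg, Ceacam and placental cathepsin genes sit at 0 to 5 CpG, and those of them above 0 are Psg and Ceacam genes. Widely expressed cathepsins reach 33.

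The placental clusters as defined above, without the Ceacam family, were late in all but part of the Psg family. They were not poor in genes by number. Prolactin family genes had a median of 17 other protein-coding genes within 500 kb, placental cathepsins 13 and Psg genes 22, against 15 for all protein-coding genes. Much of that number was the families themselves, with medians of 16.5, 6 and 10 members. Among Psg genes the number of neighbours ranged from 16 at the late Psg18 to 36 at the early Psg17. The early Psg16 and Psg29 had 19 and 18. Widely expressed cathepsins had a median of 9 neighbours, and no other member was among them. Placental genes were also short, with a median length of 7.57 kb for the prolactin family and 5.74 kb for placental cathepsins, against 17.2 kb for all protein-coding genes.

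Genes of prolactin signalling and trophoblast regulation outside the families were above 0 about as often as protein-coding genes in general, of which 73.5% were. In prolactin signalling the number was 8 of 10, with a median of 1.50. They included the kinase gene Jak2 (0.96), the transcription factor genes Stat5a (1.83) and Stat5b (2.05) and the feedback inhibitor gene Cish (1.69). Both receptor genes of the list were late, Prlr at -0.37 and Ghr at -1.39. Among trophoblast regulators and markers it was 14 of 19, with a median of 0.97, near the 1.02 of all protein-coding genes. The lineage factors Cdx2 (1.35), Eomes (0.97), Tfap2c (1.24), Gata3 (1.03) and Hand1 (1.59) were early, Elf5 was near the border at 0.12, and Tpbpa, Tpbpb, Rhox6 (-0.55), Rhox9 (-0.53) and Rtl1 (-0.21) were late. Rtl1 was 0.096 when read from the autosomal median.

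Inhibitors of cathepsins were divided by locus, with 10 of 19 genes above 0, against the same 73.5%. The stefins and their relatives on chromosome 16 were all early, 7 of 7, with scores from 0.090 to 1.03, and so were Cstb (1.48) and Cst6 (1.77). Of 8 cystatin genes on chromosome 2, 7 were late. Among them were Cst3, which encodes the widely expressed cystatin C, at -0.72, and Cst10 at -1.54, while Cst7 was early at 0.71. The chromosome 2 genes other than Cst10 and Cst7 lie close together and share positions, so their nearly equal scores (-0.72 to -0.62) are not separate measurements.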

How the data were processed

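The members and gene lists were chosen with earlier results of these data known. Per the submitters' processing notes, reads had been aligned with Bowtie2 to mm10. What the authors deposited is a score, 1 per position from both libraries together, smoothed over 300 kb per the name of the table. No source used here gives the read counting, the treatment of reads with several matches, the scaling, the log base or the zero point. Smoothing joins neighbouring genes, and amplification of DNA from 10000 cells can add unevenness that 1 library per fraction cannot measure. Of 384798 positions 4 without a score were left out, and 0 columns of sample values went unused.

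Genes came from the RefSeq table of GRCm38.p6, without 348 rows of scaffolds; 21225 of 21774 protein-coding genes had a score. Clusters join members whose neighbouring midpoints lie at most 1 Mb apart. Runs of one sign end at gaps over 300 kb. Promoter windows (64 members) used the start nearest to the gene's outer end. Given in full were the highest and lowest members of groups and clusters, members at cluster ends, exceptions in sign, genes beside or inside a cluster, the pathway lists and a short list of hormone, adhesion and protease genes; Prl7d1, and the genes picked from inside a cluster, were chosen after their values were seen. The steps were run in Python 3.11.15 with pandas 2.3.3 and numpy 2.4.6 and tested on simulated data. Alternatives were other points of a gene, distances, zero points, summaries and members; the transcription start and leaving out Ctsm were added after the data were seen. No test was possible.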

Additional observations from a re-analysis of the deposited data

How the results depend on the processing

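No paired analysis was possible because there is 1 library per fraction and 1 score for the pair. A value was taken as unchanged if it kept its sign and stayed within 1 SD over the group's genes, and a count within 1.5 times. For differences of medians the SD was that of the widely expressed cathepsins, 1.17. For 14 results, 115 of 130 alternatives met this. They include shifts of the zero point for the differences, which cannot change them. The measure is also wide: with an SD of 1.28, the Ceacam median counted as unchanged at 0.18, with the zero at the median of protein-coding genes. The zero point moved most. With the zero at the median of protein-coding genes the widely expressed cathepsins turned to -0.042 (4 genes above 0), and the medians were -2.28 (prolactin), -1.35 (Psg, 1 gene above 0), -2.10 (placental cathepsins) and 0.45 (tissue-restricted cathepsins). With the zero at the autosomal median the prolactin median was -0.96, and 21.5% of protein-coding genes lay below it. With members within 1 Mb joined, each family rests on few sites. The 2 Psg sites then had a median of 0.20 with 1 above 0, a turn of sign, the 2 prolactin sites -1.04, and 3 of 4 Ceacam sites were above 0. Above 0 were 2 Psg genes and 2 tissue-restricted cathepsins at the transcription start, where fewer genes have an entry, and 3 Psg genes with those within 0.5 of 0 left out. The number above 0 was 0 for the prolactin family and for placental cathepsins in every alternative run. The difference between placental and widely expressed cathepsins ranged from -2.16 to -1.59, and that of the placental clusters from -2.12 to -1.38. Depth is unknown, and no error between experiments can be given.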
